A study of Rattus norvegicus with 14 samples.

Results

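Vehicle-treated hippocampal neuron cultures were set beside vehicle-treated hippocampal astrocyte cultures, gene by gene, to describe which transcripts separated the cultures and which other cell types each one contained. The comparison used 7 of the 14 RNA-seq libraries of the series, 4 of neuron cultures and 3 of astrocyte cultures, all labelled as vehicle. Genes were joined by symbols found once in both tables, each library was rescaled to a total of 1000000 over the 18218 shared genes, which gives normalized counts per 1000000 (CPM), and the 14966 genes with a mean of at least 1 CPM in either culture were kept. The study asked how allopregnanolone (Allo), a neurosteroid made from progesterone that prolongs opening of the GABA-A receptor, acts on neurons and astrocytes held in supplement-reduced aging model (AM) medium. Its remaining 7 libraries, 4 of neurons and 3 of astrocytes, received 100 nM Allo.

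Both cultures came from hippocampi of embryonic day 18 Sprague Dawley rats, with no genetic modification, and neither group received Allo. The neuron libraries (AM-Veh 1-1, 1-2, 2-1 and 2-2) came from cells grown in serum-free Neurobasal medium with B27, moved on day 10 to AM medium with little B27 for 4 h and then given 0.001% ethanol as vehicle for 16 h. The astrocyte libraries (AM-Veh 1, 2 and 3) came from mixed glia grown in serum, shaken overnight so that loose microglia and oligodendrocytes could be discarded, replated, kept in AM medium with charcoal-stripped serum for 24 h and given vehicle for 24 h. The methods describe no removal of glia from the neuron cultures, and the shaking step enriches astrocytes without sorting them. The labels do not say whether libraries of a group came from separate cultures or litters, so the spread between them may be technical. Each culture has a medium, a time in vehicle and a separately normalized table of its own. Culture, medium, time and table cannot be told apart here, so no test was made between the cultures and no p-value is given. In such bulk samples, fewer cells of a type and less RNA per cell also cannot be told apart.

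Neurons carry the machinery for electrical signalling: neurofilaments and neuronal tubulin for the axon, synaptic vesicle proteins for release, and receptor channels for glutamate and GABA. Astrocytes clear transmitter and potassium, couple through gap junctions and supply lipids and matrix, and in serum-fed culture they are known to take on features of reactive glia. Cultures of embryonic brain tissue can also hold neural progenitors, oligodendrocyte lineage cells, microglia and cells of vessels and meninges.

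All levels below are given in CPM of the shared genes, and all differences are the neuron mean minus the astrocyte mean of log2(CPM + 1), with a standard error (SE) from the spread between libraries. The added 1 understates the change of genes at low levels. A gene with a mean under 1 CPM in 1 culture was kept only through the other culture, so the minimum fixed the direction of its difference. A gene was called when that difference was at least 2 in size, about 4-fold, and the ranges of the 4 neuron and the 3 astrocyte libraries did not overlap. Levels of different genes are not ranked against each other, because the values are not per length.

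Of the 14966 genes kept, 1164 (7.78%) were called higher in neuron cultures and 962 (6.43%) higher in astrocyte cultures, 2126 (14.2%) in all. Ranges failed to overlap at any size of difference for 12278 genes (82.0%), 46.2% higher in neuron cultures and 35.9% higher in astrocyte cultures, so absence of overlap alone said little. The median difference over all kept genes was 0.11. Differences of 16-fold or more were held by 289 genes higher in neuron cultures and 170 higher in astrocyte cultures, and differences of 256-fold or more by 3 and 10. On the neuron side, Fam110d (3.83 against 0.211 CPM in the means) lay just inside the limit for a call and Plcxd3 (3.23 against 0.0587) just outside it. On the astrocyte side these places were held by Tmem159 (4.34 against 20.4) and Lats2 (62.5 against 253). No kept gene was listed at 0 in every neuron library, while 71 were listed at 0 in every astrocyte library. The neuron table holds no gene with a mean under 0.925 normalized counts over its libraries, so genes absent from neuron cultures could not enter the comparison.

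**Figure D1:**
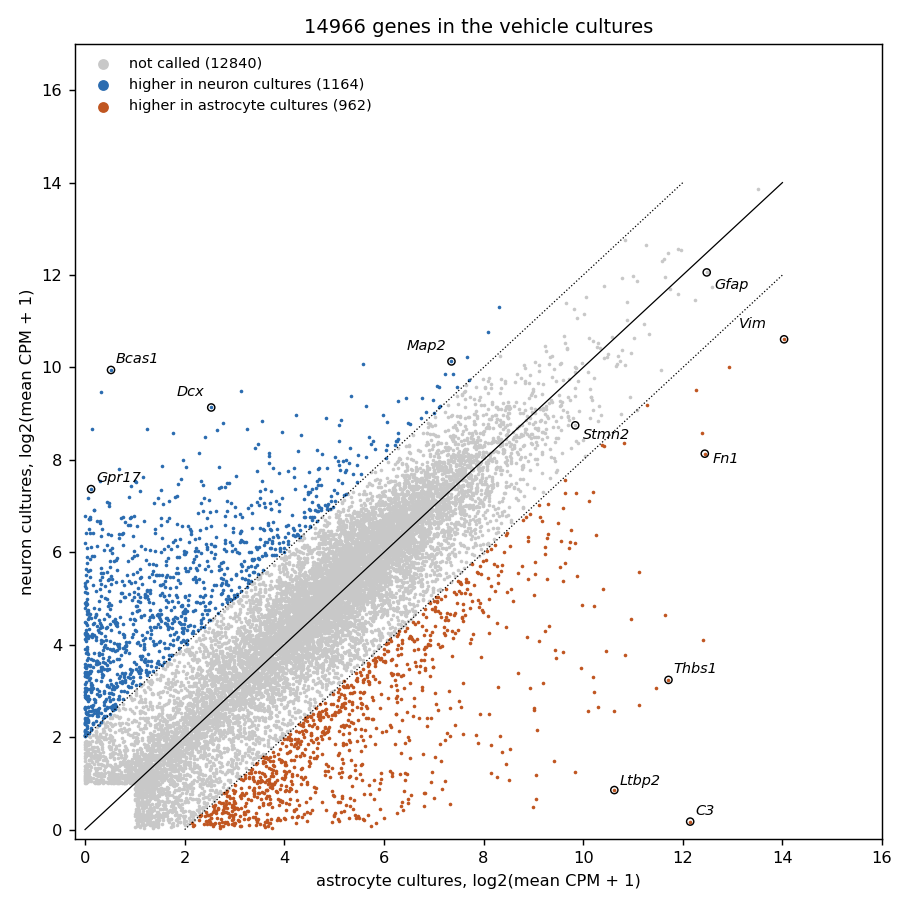
Each point is 1 of 14966 genes, placed by log2(mean CPM + 1) in the 3 astrocyte libraries (x axis) and the 4 neuron libraries (y axis); the solid line marks equal levels and the dotted lines a difference of 2. Blue points are the 1164 genes called higher in neuron cultures and orange points the 962 called higher in astrocyte cultures; Bcas1 and C3 lie near the ends of the cloud, and Gfap and Stmn2 lie between the dotted lines.

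Estimated depth was similar, at 19600000 to 25200000 reads on genes in neuron libraries and 22600000 to 24300000 in astrocyte libraries. By these estimates 1 CPM stood for about 19.5 to 25.1 reads. Each estimate took the median of normalized values near 1 as the value of 1 read, which holds it near the normalized total. A large difference in depth could therefore not show. Pearson correlations of log2 values across genes, which are not independent replicates, were 0.997 between astrocyte libraries, 0.997 between neuron libraries with the same first number, 0.994 to 0.995 between neuron libraries with different first numbers, and 0.749 to 0.770 between the cultures. The share of signal on mitochondrially encoded genes was larger in neuron libraries (5.66% to 6.06%) than in astrocyte libraries (3.62% to 3.93%).

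The 7 marker genes only partly followed the labels. Map2, a dendritic microtubule-associated protein, read 1167, 1126, 1112 and 1074 CPM in neuron libraries 1-1, 1-2, 2-1 and 2-2 and 171, 154 and 163 in astrocyte libraries 1, 2 and 3. Dcx, the microtubule protein doublecortin of young neurons, read 592, 569, 541 and 541 against 5.27, 4.33 and 4.76. Both were higher in every neuron library, by 2.78 ± 0.05 (SE; n = 4 and 3) and 6.60 ± 0.08, or 6.88-fold and 117-fold in the means.

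Stmn2, the growth-associated stathmin of neurons, went against the labels. It read 464, 411, 444 and 395 CPM in neuron libraries and 930, 914 and 902 in astrocyte libraries, a difference of −1.10 ± 0.05, or 2.14-fold higher in astrocyte cultures with no overlap. The difference did not reach the size for a call. Map2 and Dcx were far lower in the same astrocyte libraries, and how reads were assigned to Stmn2 was not tested.

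The astrocyte markers Gfap and Slc1a3 differed in opposite directions, each with no overlap and by less than the size for a call. Gfap, the intermediate filament of astrocytes, read 3288, 3592, 4825 and 5334 CPM in neuron libraries and 5902, 5495 and 5737 in astrocyte libraries. The neuron libraries numbered 2-1 and 2-2 lay close to the astrocyte libraries and those numbered 1-1 and 1-2 below them, for a difference of −0.45 ± 0.17. Slc1a3, the glutamate transporter GLAST of astrocytes and radial glia, was higher in every neuron library, at 2636, 2680, 2803 and 2786 against 1976, 1862 and 1835 (0.53 ± 0.04).

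Bcas1, a marker of oligodendrocytes beginning to myelinate, had the largest difference of any named gene toward neuron cultures. It read 945, 930, 996 and 1069 CPM there and 0.371, 0.514 and 0.42 in astrocyte cultures (9.42 ± 0.06). Csf1r, the growth factor receptor that microglia need, had the opposite pattern, at 0.186, 0.254, 0 and 0.209 against 12.6, 16.8 and 12.5 (−3.68 ± 0.15). The neuron cultures thus carried an oligodendrocyte marker and the astrocyte cultures a microglial one.

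**Figure D2:**
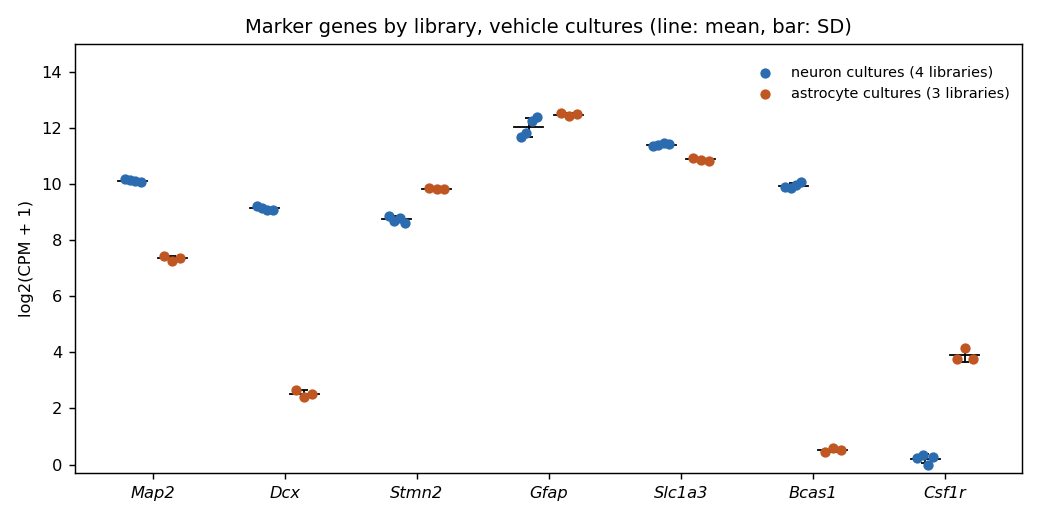
Levels of the 7 marker genes as log2(CPM + 1) in the 4 neuron (blue) and 3 astrocyte (orange) vehicle libraries; points are libraries, lines are means and bars are SDs. Map2, Dcx and Bcas1 lie far higher in neuron cultures and Csf1r in astrocyte cultures, Gfap and Slc1a3 differ little, and Stmn2 is higher in the astrocyte cultures.

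Pan-neuronal genes were nearly all higher in neuron cultures. Of 17 pan-neuronal genes kept, 15 were called higher there and none higher in astrocyte cultures, with a median difference of 5.71 against 0.11 over all kept genes. Tubb3, the neuronal tubulin, read 436, 405, 414 and 378 CPM in neuron libraries and 1.08, 1.44 and 1.54 in astrocyte libraries (7.45 ± 0.10). The neurofilament gene Ina differed by 7.26 ± 0.14, Nefl by 6.62 ± 0.09, the calcium sensor of release Syt1 by 6.54 ± 0.11 and the growth cone protein gene Gap43 by 6.03 ± 0.09. The exceptions were Stmn2 and Thy1, whose ranges overlapped (0.25 ± 0.12). Summed over the list, the level was 4658 to 5288 CPM in neuron libraries and 1120 to 1152 in astrocyte libraries, a 4.41-fold ratio. Stmn2 held 80.9% of the astrocyte sum, and without it the sums were 4263 to 4823 against 206 to 222, or 21.1-fold.

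Markers of excitatory and inhibitory neurons were both present in the neuron cultures. Of 12 excitatory genes, 11 were called higher there, with a median difference of 3.44, and Prox1, a transcription factor of dentate granule cells, was not (1.38 ± 0.09). Slc17a7, the vesicular glutamate transporter VGLUT1, read 102, 86.9, 89.9 and 77.5 CPM against 0, 0.166 and 0 in astrocyte libraries. Bcl11b, a transcription factor of deep-layer and hippocampal neurons, was listed at 0 in all 3 astrocyte libraries and read 23.4, 21.5, 14.6 and 11.4 in neuron libraries, higher in the pair numbered 1 than in the pair numbered 2.

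Of 12 inhibitory genes, 7 were called higher in neuron cultures (median difference 2.73). Gad2, an enzyme that makes GABA, read 75.5, 74.5, 99.4 and 84.5 CPM against 0.348, 0.304 and 0.448 (5.94 ± 0.10), and the interneuron peptide gene Sst differed by 4.27 ± 0.14. The other GABA-making enzyme, Gad1, stood apart from the list: it read 53.9, 49.8, 65.7 and 57.5 in neuron libraries and 79.5, 71.9 and 75.8 in astrocyte libraries, higher in every astrocyte library (−0.42 ± 0.09). How reads were assigned to Gad1 was not tested.

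Synaptic and axonal genes followed the neuronal ones. Of 16 synaptic vesicle and release genes, 14 were called higher in neuron cultures, led by Cplx1 (6.65 ± 0.11), a complexin that clamps and triggers fusion, Sv2b (6.38 ± 0.07), a vesicle glycoprotein, and Syp (5.71 ± 0.13), the vesicle protein synaptophysin. Their summed level was 1916 to 2254 CPM against 328 to 342, or 6.26-fold. Of 19 axon and growth cone genes, 7 were called higher in neuron cultures, and the remaining ones included Map1b, which was higher in astrocyte cultures (−0.45 ± 0.05). Transcripts of axon genes were thus not absent from the astrocyte cultures, where the list summed to 4934 to 5087 CPM against 12832 to 14015. Counts of the near-identical tubulins Tubb2a and Tubb2b may have been split between them in quantification.

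Of 14 genes of neuronal splicing and its repression, 12 read higher in neuron cultures and 7 of these were called, with a median difference of 2.01. Celf5 (5.21 ± 0.05) and Celf4 (5.18 ± 0.09) led, followed by Rbfox1 (3.90 ± 0.09) and Nova1 (3.46 ± 0.05). Rest, the repressor of neuronal genes in other cells, and Ptbp1, the splicing repressor that neurons lose, lay higher in astrocyte cultures by less than the size for a call (−0.92 ± 0.06 and −0.95 ± 0.04).

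Most genes of the ion channel families also lay higher in neuron cultures. Of 68 Kcn potassium channel genes kept, 32 were called higher there and 2 higher in astrocyte cultures (median difference 1.70). Of 22 Cacn calcium channel genes, 12 were called higher in neuron cultures and none higher in astrocyte cultures. Of 11 Scn sodium channel genes, 5 were called higher in neuron cultures, led by the axonal channel Scn8a (4.74 ± 0.13), and 2 higher in astrocyte cultures. Scn7a, an atypical sodium channel expressed in glia, was one of these, at 4.17, 3.98, 5.54 and 6.02 CPM against 1623, 1573 and 1500 (−8.06 ± 0.13). With Scn7a included, the Scn genes summed to 376 to 408 CPM in neuron libraries and 1651 to 1783 in astrocyte libraries.

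Receptors through which Allo is proposed to act differed strongly. Of 11 GABA-A receptor subunit genes kept, 10 were called higher in neuron cultures, with a median difference of 4.39 and a summed level of 400.0 to 470 CPM against 22.6 to 25.4. Gabra2 differed by 5.04 ± 0.05, Gabrg1 by 4.46 ± 0.17, Gabra4 by 4.39 ± 0.11, Gabra5 by 4.04 ± 0.16, Gabrb1 by 3.70 ± 0.15, Gabrb2 by 3.33 ± 0.08 and Gabrg3 by 2.61 ± 0.07. Gabra3 was the exception, at 11.7, 11.5, 12.8 and 11.5 against 13.2, 14.5 and 15.5 (−0.26 ± 0.07), and this direction turned when the AM-Allo libraries were used. The δ subunit gene Gabrd, below the minimum in both cultures, was listed at 0 in all astrocyte libraries and at 0.59 to 1.08 CPM in neuron libraries.

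Chloride transport, which sets whether GABA depolarizes or hyperpolarizes a cell, was divided. Slc12a2, which encodes the chloride importer NKCC1, read 142, 143, 139 and 131 CPM in neuron libraries and 249.7, 239 and 241 in astrocyte libraries (−0.81 ± 0.03), 1.75-fold higher in astrocyte cultures. Slc12a5, which encodes the neuronal chloride exporter KCC2, read 52.5, 49.6, 48.3 and 44.9 against 3.93, 4.49 and 4.60 (3.22 ± 0.07) and was called higher in neuron cultures. The importer was thus present in both cultures and the exporter mainly in the neuron cultures.

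Of the 10 cotransporter and WNK pathway genes, 2 were called, Slc12a5 and the kinase gene Wnk2 (2.45 ± 0.03), and 5 were higher in each culture. Slc12a7, the potassium chloride cotransporter KCC4, lay higher in astrocyte cultures (−1.90 ± 0.14) and so did Wnk1 (−0.48 ± 0.02) and Oxsr1 (−0.29 ± 0.03). Wnk3 (1.03 ± 0.11), Stk39 (0.82 ± 0.04) and Slc12a4 (0.29 ± 0.05) lay higher in neuron cultures. The median difference of the list, 0.02, was −0.08 when the libraries were scaled by median of ratios or by upper quartile or left as deposited, so it had no stable direction.

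Of 9 genes kept of the L-type calcium channel, the voltage-gated channel blocked by nifedipine, 4 were called higher in neuron cultures. The pore subunit gene Cacna1c read 44.1, 43.7, 36.5 and 43.8 CPM against 6.59, 5.38 and 5.51 (2.66 ± 0.10), and Cacna1d read 37.0, 32.9, 34.1 and 34.1 against 1.09, 0.906 and 0.934 (4.17 ± 0.05). The auxiliary subunits also serve other calcium channels. Among their genes, Cacna2d3 (4.24 ± 0.12) and Cacnb4 (3.34 ± 0.07) were also called, and Cacna2d2 (1.81 ± 0.13), Cacna2d1 (0.79 ± 0.07) and Cacnb1 (0.75 ± 0.10) were higher by less. Cacnb2 lay higher in astrocyte cultures (−1.46 ± 0.05), as did Cacnb3 by a small amount (−0.14 ± 0.07). Cacna1f and Cacna1s, the retinal and skeletal muscle pore subunits, were below the minimum in both cultures.

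Downstream of calcium entry, 2 of 15 effector genes were called in each direction. The kinase genes Camk2b (6.03 ± 0.13) and Camk2a (3.08 ± 0.13) were higher in neuron cultures, 86.6-fold and 10-fold in the means. The immediate early genes Fos and Jun were higher in astrocyte cultures, Fos at 83.5 to 99.4 CPM against 13.9 to 19.4 (−2.36 ± 0.13) and Jun at 461 to 467 against 102 to 112 (−2.10 ± 0.03). Creb1 (0.30 ± 0.03) and Elk1 (−0.05 ± 0.04) differed little, and Mapk3 lay higher in astrocyte cultures (−1.25 ± 0.02).

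Among 8 neurosteroid synthesis genes kept, 1 was called: Tspo, a protein of the outer mitochondrial membrane, read 4.49, 4.89, 6.01 and 7.79 CPM in neuron libraries and 71.8, 81.7 and 75.1 in astrocyte libraries (−3.53 ± 0.16). Srd5a1, the 5α-reductase that leads from progesterone toward Allo, lay higher in neuron cultures (1.63 ± 0.10), and Akr1c14, the enzyme of the next step, by less (0.69 ± 0.14). Star read 0.769 to 1.37 against 1.55 to 2.08 (−0.43 ± 0.13). The list as a whole was split, with 4 genes higher in each culture and a median difference of 0.11. Its 9 shared genes summed to 107 to 113 CPM in neuron libraries and 181 to 193 in astrocyte libraries.

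**Figure D3:**
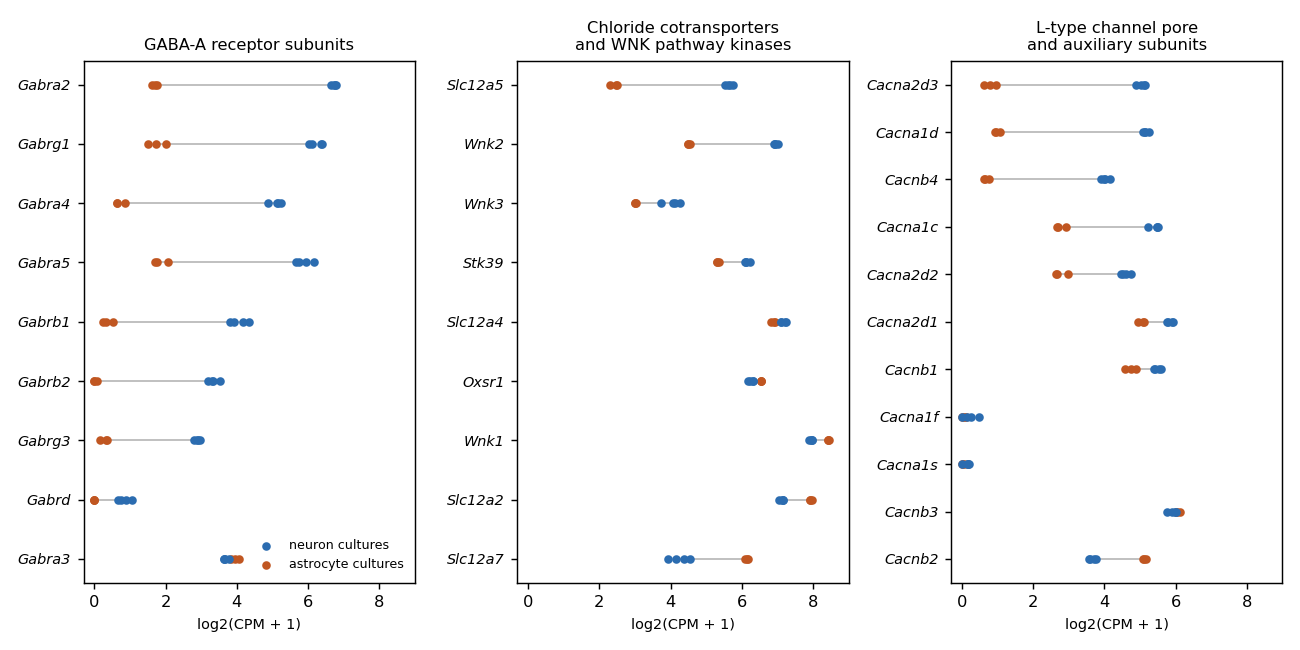
Members described from the GABA-A receptor, chloride transport and L-type channel lists as log2(CPM + 1) in each vehicle library of neuron (blue) and astrocyte (orange) cultures; grey lines join the group means. All GABA-A subunit genes plotted but Gabra3 lie higher in neuron cultures, while the chloride and L-type panels hold genes on both sides, with Slc12a2 higher in astrocyte cultures and Slc12a5 in neuron cultures.

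Glutamate receptors showed that receptor expression was not limited to neuron cultures. Of 20 genes kept, 13 were called higher in neuron cultures (median difference 2.48), led by the obligate NMDA subunit gene Grin1, at 104, 99.5, 103 and 96.0 CPM against 0.179, 0.175 and 0.167 (6.44 ± 0.03). The kainate receptor genes Grik3 (4.51 ± 0.16) and Grik2 (4.47 ± 0.06) were called too, and the metabotropic receptor gene Grm7 (3.90 ± 0.05) was listed at 0 in all astrocyte libraries. The AMPA subunit gene Gria3 was higher in astrocyte cultures, at 176 to 183 against 98.8 to 101 (−0.83 ± 0.02), and Gria2 stood at 185 to 209 there against 678 to 752 in neuron cultures (1.86 ± 0.06).

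Most listed genes of the oligodendrocyte lineage were higher in neuron cultures. Of 10 genes of oligodendrocyte precursors, 8 were called higher in neuron cultures (median difference 3.80), and of 13 genes of differentiating and myelinating oligodendrocytes, 10 were (median difference 3.73). None of either list was called higher in astrocyte cultures. The precursor list summed to 4615 to 4924 CPM in neuron libraries and 966 to 1045 in astrocyte libraries, and the later list to 2243 to 2424 against 197 to 199, or 11.7-fold. The part of these cells in the differences of other lists was not tested.

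Genes of precursors, committed precursors and myelination were present, but some late myelin genes were near or below the minimum. Pdgfra, the growth factor receptor of precursors, read 316, 314, 285 and 276 CPM against 24.2, 25.2 and 22.9 (3.57 ± 0.06), and the lineage factor Olig2 read 425, 428, 378 and 394 against 8.38, 8.43 and 8.84 (5.41 ± 0.05). Gpr17, a receptor of committed precursors, read 161, 156, 159 and 180 against 0.135, 0 and 0.126 (7.25 ± 0.07), and Nkx2-2 differed by 5.48 ± 0.06 and Sox10 by 5.33 ± 0.16. Of the myelination genes, the regulator Myrf differed by 4.68 ± 0.07 and the lipid enzyme gene Ugt8 by 5.54 ± 0.08. Mbp, the myelin basic protein, read 85.2, 80.3, 43.3 and 41.5 against 0.742, 0.359 and 0.246 (5.39 ± 0.31), with the pair numbered 1 well above the pair numbered 2. Mog, a late myelin surface protein, was at 7.11 to 7.55 in neuron libraries and 7.14 to 8.94 in astrocyte libraries, which overlapped. Mobp was near the minimum, at 0.822 to 2.17 against 0.326 to 0.731, and was not called. Ermn was below the minimum in both cultures, and Opalin was not among the shared genes.

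Astrocyte markers went both ways. Of 18 genes kept, 11 read higher in neuron cultures and 7 in astrocyte cultures, the ranges of 1 overlapped, and 6 were called, all higher in neuron cultures. The 19 shared genes summed to 13983 to 15883 CPM in neuron libraries and 14757 to 15533 in astrocyte libraries, which overlapped, and without Gfap to 10549 to 10937 against 9200 to 9631, which did not. Slc1a2, the main glutamate transporter of mature astrocytes, read 103, 115, 114 and 122 CPM against 8.85, 6.81 and 7.08 (3.74 ± 0.12). Also called were the amino acid transporter gene Slc7a10 (5.14 ± 0.05), the acyl-CoA synthetase gene Acsbg1 (2.99 ± 0.04), the neurotensin receptor gene Ntsr2 (2.92 ± 0.12) and the bicarbonate transporter gene Slc4a4 (2.78 ± 0.16).

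With the main scaling, no astrocyte marker was called higher in astrocyte cultures. The nearest was Mlc1, a membrane protein of astrocyte endfeet, at 518, 525, 565 and 551 CPM against 2199, 2144 and 2125, 3.99-fold higher in astrocyte cultures and just short of the limit for a call (−1.997 ± 0.03). Scaling by median of ratios or upper quartile, or values as deposited, moved the list median from 0.54 to 0.44. That shift is larger than the gap between Mlc1 and the limit, so the absence of such calls depends on the scaling. A list of astrocyte gap junction, ion and water handling genes, which shares Gja1 with the markers, pointed the same way as Slc1a2. Of 12 kept, 4 were called higher in neuron cultures, among them the GABA transporter gene Slc6a11 at 170, 169, 124 and 112 against 0.0447, 0.0444 and 0.0416 (7.09 ± 0.15) and the glutamine transporter gene Slc38a3 (4.08 ± 0.05). The gap junction gene Gja1 lay higher in neuron cultures (1.27 ± 0.03) and the urea transporter gene Slc14a1 in astrocyte cultures (−1.75 ± 0.09).

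Vimentin, reactive and matrix genes were higher in astrocyte cultures. Vim, the intermediate filament vimentin of radial glia, reactive astrocytes and mesenchymal cells, read 1236, 1357, 1780 and 1872 CPM in neuron libraries and 17459, 16298 and 16536 in astrocyte libraries (−3.45 ± 0.15), 10.7-fold higher. Of 11 progenitor and radial glia genes, 3 were called higher in astrocyte cultures: Vim, the transcription factor Pax6 (−2.36 ± 0.07) and the membrane protein Prom1 (−2.31 ± 0.12). The Notch target Hes5 was called in the opposite direction, at 34.3, 33.8, 18.1 and 17.6 against 0, 0.0926 and 0.0438 (4.62 ± 0.26). Fabp7, the brain lipid-binding protein, and Nes, nestin, lay higher in neuron cultures by less (1.15 ± 0.02 and 1.06 ± 0.12). The list had a median difference of 0.32, with 6 genes higher in neuron and 5 in astrocyte cultures. Its summed level was 2.72-fold higher in astrocyte cultures, but without Vim, which held 81.7% of the astrocyte sum, it was 5805 to 6169 CPM in neuron libraries against 3681 to 3846, 1.597-fold higher in neuron cultures.

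Reactive astrocyte genes were mostly higher in astrocyte cultures. Of 20 kept, 13 were called higher in astrocyte cultures and none higher in neuron cultures, with a median difference of −2.52. They summed to 10002 to 11837 CPM against 370 to 569, or 23.1-fold, and 13.3-fold without C3. C3, the central complement component, read 0.102, 0.0792, 0.156 and 0.169 in neuron libraries and 4047, 5244 and 4321 in astrocyte libraries (−11.97 ± 0.12), the largest difference of all named genes. The iron-binding lipocalin gene Lcn2 read 0.151, 0.362, 0.408 and 1.43 against 420, 677 and 493 (−8.42 ± 0.31), and the copper protein gene Cp read 19.7, 18.5, 26.8 and 30.3 against 3115, 3388 and 3065 (−7.03 ± 0.17). The complement inhibitor gene Serping1 differed by −7.93 ± 0.25. In neuron libraries several of these genes, such as S1pr3 at 65.3, 74.1, 128 and 142, were higher in the pair numbered 2.

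Complement and protease-inhibitor genes outside that list were among the 20 largest differences. Cfb, a factor of the alternative complement pathway, read 0.259 to 0.590 CPM against 437 to 636 (−8.49 ± 0.19). C1s, a protease of the classical pathway, read 9.68 to 15.5 against 1724 to 1970 (−7.07 ± 0.16). A2m, the broad protease inhibitor, read 16.4, 16.6, 15.6 and 16.2 against 5523, 5333 and 5387 (−8.30 ± 0.02). The secreted chaperone gene Clu was at 5206 to 5510 against 362 to 391 (−3.81 ± 0.03), and App, the amyloid precursor, at 4742 to 5140 against 707 to 753 (−2.74 ± 0.04). Of 11 chemokine genes kept, 6 were called higher in astrocyte cultures, led by Cxcl1 (−5.95 ± 0.09), and none higher in neuron cultures.

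Of 26 extracellular matrix genes, 13 were called higher in astrocyte cultures and 2 higher in neuron cultures, with a median difference of −1.98. Thbs1, a matrix protein that astrocytes secrete, read 9.06, 7.95, 8.83 and 7.91 CPM in neuron libraries and 2959, 3446 and 3659 in astrocyte libraries (−8.47 ± 0.10), 398-fold higher. Ltbp2, a binding protein of elastic fibres, differed by −9.77 ± 0.10, the proteoglycan gene Bgn by −8.39 ± 0.08 and the collagen genes Col8a2 by −8.59 ± 0.05, Col6a2 by −6.03 ± 0.05 and Col6a1 by −5.62 ± 0.11. Of 37 collagen genes kept, 17 were called higher in astrocyte cultures and none in neuron cultures, as were 10 of 22 integrin genes and 2 of 8 laminin genes. The matrix genes called higher in neuron cultures were the brain proteoglycans Bcan, at 1662 to 1803 against 262 to 282 (2.68 ± 0.04), and Vcan (2.52 ± 0.13).

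Ctgf and Cyr61, matricellular proteins known as targets of the YAP and TAZ coactivators and their TEAD partners, were also among the largest differences. Ctgf read 5.16, 5.36, 6.25 and 5.17 CPM in neuron libraries and 2056, 2259 and 2374 in astrocyte libraries (−8.43 ± 0.08), and Cyr61 read 5.11, 6.33, 8.54 and 7.59 against 1150, 1273 and 1138 (−7.25 ± 0.15). Tead1 (−1.33 ± 0.06), Yap1 (−1.24 ± 0.06) and Wwtr1, the gene of TAZ (−1.19 ± 0.07), lay higher in astrocyte cultures by less than the size for a call. Thbs1 is known as a target of the same factors. To show the letters that TEAD proteins bind, 80 bases upstream of these genes are given with the core GGAATG, or its reverse complement, in capitals, and beside them 80 bases upstream of Neurod6, a transcription factor of excitatory neurons called higher in neuron cultures (6.04 ± 0.07), with the E-box CAGATG in capitals. The bases are RefSeq's, from GRCr8, 5′ to 3′ on the strand of the gene, and the genes were chosen after their values were seen.
Ctgf (Ccn2 in RefSeq, minus strand, chr1:22624657-22624736): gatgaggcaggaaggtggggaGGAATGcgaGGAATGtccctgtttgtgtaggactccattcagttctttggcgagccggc
Cyr61 (Ccn1 in RefSeq, minus strand, chr2:237225753-237225832): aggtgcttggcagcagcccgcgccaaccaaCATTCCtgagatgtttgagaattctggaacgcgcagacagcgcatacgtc
Thbs1 (plus strand, chr3:125510170-125510249): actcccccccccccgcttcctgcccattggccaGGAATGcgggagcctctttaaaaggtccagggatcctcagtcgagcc
Neurod6 (minus strand, chr4:86180156-86180235): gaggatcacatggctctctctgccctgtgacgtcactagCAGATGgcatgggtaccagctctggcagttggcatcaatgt
GGAATG on either strand occurred in the 250 bases before the start of 11.6% of 24206 rat promoters and CAGATG in 13.6%. Ctgf held 3 copies of GGAATG in that window and Cyr61 and Thbs1 held 1 each. Only genes with a match could be shown, and other motifs were searched too. The matches of these genes therefore cannot be weighed against the share of all promoters. Only 65.4% of the genes called higher in astrocyte cultures and 64.9% of those called higher in neuron cultures had a promoter in the table, so motif shares were not compared between them, and a match describes letters and not a bound site.

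Markers of vessel wall, meninges, ventricle lining and microglia were also higher in astrocyte cultures. Of 9 mural and smooth muscle genes kept, 5 were called higher there, with a sum of 2439 to 2833 CPM against 353 to 517. Acta2, smooth muscle actin, read 2.72, 1.19, 0.925 and 1.82 against 304, 358 and 383 (−7.08 ± 0.23), the calponin gene Cnn1 differed by −5.86 ± 0.24, and Pdgfrb, the pericyte receptor, read 14.1 to 17.9 against 165 to 166 (−3.25 ± 0.08). Myh11, a myosin of mature smooth muscle, overlapped between the cultures, at 10.4 to 19.0 against 14.7 to 19.1. Several of these genes are also expressed by cultured astrocytes and other adherent cells, and the part of vessel or meningeal cells in the matrix and reactive gene differences was not tested.

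Of 10 fibroblast and meningeal genes kept, 6 were called higher in astrocyte cultures and 2 higher in neuron cultures, with a sum of 9267 to 10268 CPM against 1768 to 1948. Igfbp2 held 67.3% of the neuron sum, and without it the sums were 7829 to 8797 against 593 to 648. Col1a2, a chain of type I collagen, read 11.3, 5.5, 2.52 and 1.67 in neuron libraries and 1173, 1226 and 1353 in astrocyte libraries (−7.90 ± 0.49), and Col3a1 read 6.25, 2.62, 0.412 and 0.127 against 314, 369 and 431 (−7.18 ± 0.64). Both were highest in neuron library 1-1. Fn1, fibronectin, read 217, 240, 307 and 355 against 5396, 5394 and 5896 (−4.33 ± 0.17). Of the genes in the opposite direction, Pdgfra is shared with the precursor list, and the proteoglycan gene Dcn read 12.1, 10.8, 6.09 and 4.22 against 0.349, 0.308 and 0.0815 (2.81 ± 0.33). Lum was below the minimum in both cultures.

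Endothelial content was low by these markers. Of 8 shared genes, 3 were kept, and 2 of these, Vwf (−3.84 ± 0.10) and Kdr (−2.98 ± 0.28), were called higher in astrocyte cultures, at 21.1 to 23.4 and 20.9 to 24.2 CPM against 0.356 to 0.826 and 1.12 to 4.10. The endothelial genes Cdh5, Tek, Tie1 and Esam stayed below 1 CPM in every library. Of 7 ependymal and choroid plexus genes kept, 3 were called higher in astrocyte cultures: the folate receptor gene Folr1 (−4.84 ± 0.14), Dynlrb2 (−4.70 ± 0.12) and Rsph1 (−3.05 ± 0.12), the last of these part of motile cilia. Ttr, the transthyretin gene that marks choroid plexus, overlapped, at 4.84 to 10.5 against 8.49 to 10.1.

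All 12 microglia and macrophage genes kept lay higher in astrocyte cultures with no overlap, and 6 of them were called: Csf1r, Mrc1 (−3.53 ± 0.18), C1qc (−3.37 ± 0.17), Laptm5 (−3.29 ± 0.11), Aif1 (−2.86 ± 0.08) and Tmem119 (−2.56 ± 0.07). Of all kept genes, 35.9% lay higher in astrocyte cultures with no overlap and 6.43% were called higher there. The called members, Cx3cr1, Ptprc and Fcgr2b had neuron means under 1 CPM. They were kept through the astrocyte cultures alone, which fixed their direction in advance. Levels were low, since the called members other than Tmem119 stood at 0.254 CPM or less in neuron libraries and at 6.44 to 16.8 in astrocyte libraries. In astrocyte library 2, Csf1r, Mrc1, C1qc, Laptm5 and Aif1 were at their highest. P2ry12, the receptor of resting microglia, was below the minimum. The complement gene C1qa (12.6 ± 1.59 CPM, SD, n = 3), C1qb (7.98 ± 1.70) and Itgam (6.72 ± 1.45) had values in the astrocyte table only and were not compared.

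**Figure D4:**
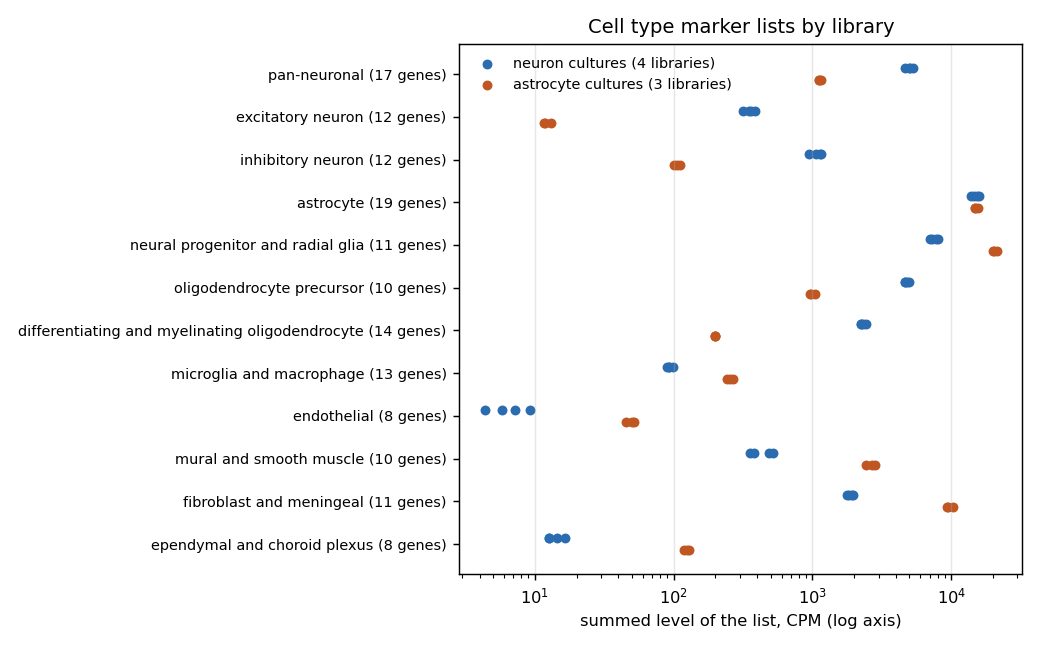
Summed level in CPM (log axis) of 12 cell type marker lists in each neuron (blue) and astrocyte (orange) vehicle library, with the number of shared genes summed in brackets. Neuronal and oligodendrocyte lists lie higher in neuron cultures, the astrocyte list overlaps, and the progenitor list (through Vim), microglial, endothelial, mural, fibroblast and ependymal lists lie higher in astrocyte cultures.

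Some groups had few calls, and their shares stand beside 7.78% of all kept genes called higher in neuron and 6.43% in astrocyte cultures. Of 17 cell cycle genes, 1 (5.88%) was called, the cyclin gene Ccne1 (2.32 ± 0.10). Ranges overlapped between the cultures for 9 of them, while 82.0% of all kept genes had no overlap. The proliferation marker Mki67 read 53.1, 57.8, 43.8 and 40.8 CPM in neuron libraries and 42.9, 51.1 and 56.1 in astrocyte libraries (−0.04 ± 0.16), and its ranges overlapped. Ccnd1, cyclin D1, was higher in astrocyte cultures by less than the size for a call (−1.59 ± 0.04). The median difference of the list, −0.08, turned to 0.04 without neuron library 2-2, 0.15 with the neuron pair numbered 1 alone and 0.07 with the AM-Allo libraries.

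Of 16 glial transcription factors, 1 (6.25%, near the share of all genes) was called, Sox8, at 378, 391, 350 and 357 CPM against 19.1, 18.1 and 20.1 (4.20 ± 0.06). Calls among the genes of regional identity were 14.3% in each direction, above the shares of all genes. Among 7 genes of regional identity kept, the secreted ligand gene Wnt7b was called higher in neuron cultures (5.74 ± 0.11) and the cortical factor Emx2 higher in astrocyte cultures, at 121 to 127 against 25.3 to 27.3 (−2.18 ± 0.03). The forebrain factor Lhx2, at 268 to 279 against 135 to 137, was present in both cultures and higher in astrocyte cultures.

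Of 19 genes of cholesterol synthesis and transport, 1 (5.26%, near the shares of all genes) was called in each direction. The exporter gene Abca1 read 713 to 846 CPM against 171 to 182 (2.11 ± 0.06). Apoe, the lipoprotein that glia secrete, was 2.64-fold higher in neuron cultures, at 6073, 6374, 6461 and 6906 against 2450, 2489 and 2389 (1.40 ± 0.04). Of 11 MHC and interferon genes kept, all lay higher in astrocyte cultures and 2 were called, Cd74 (−3.48 ± 0.12) and RT1-A1 (−3.09 ± 0.22). RT1-A1 has close relatives that may share its reads.

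**Figure D5:**
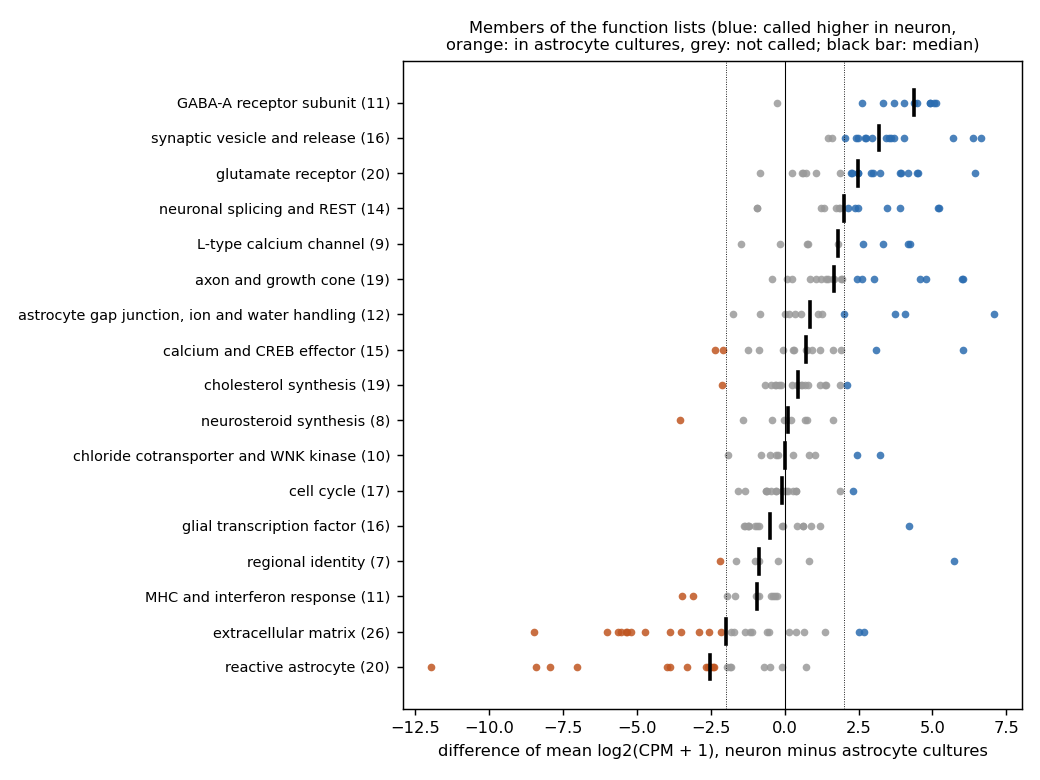
Difference of mean log2(CPM + 1), neuron minus astrocyte cultures (x axis), for the kept members of 17 function lists, with the number kept in brackets; black bars are list medians and dotted lines mark differences of 2 and −2. Medians run from 4.39 for GABA-A receptor subunits to −2.52 for reactive astrocyte genes, and most other lists hold members on both sides of 0.

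The AM-Allo libraries gave nearly the same separation. When the 4 neuron and 3 astrocyte AM-Allo libraries took the place of the vehicle libraries, 1172 genes were called higher in neuron cultures and 975 higher in astrocyte cultures. Of the vehicle calls, 1111 (95.4%) and 919 (95.5%) were among them. Bcas1 was at 1020, 1037, 1120 and 1111 CPM in neuron AM-Allo libraries and 0.485, 0.526 and 0.716 in astrocyte ones. Stmn2 again read higher in astrocyte cultures, at 882, 931 and 926 against 432, 432, 509 and 515, and C3 again read highest there, at 3966, 4931 and 4875 against 0.0423, 0.228, 0.123 and 0.0504.

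The neuron libraries varied among themselves along their first number. With the pair numbered 1 alone against the 3 astrocyte libraries, 1185 and 1011 genes were called higher in neuron and in astrocyte cultures, and with the pair numbered 2 alone 1137 and 924. Of the 1164 and 962 genes called with all libraries, the pair numbered 1 kept 1139 and 943 and the pair numbered 2 kept 1119 and 913. The summed level of the astrocyte list averaged 14256 CPM in the pair numbered 1 and 15663 in the pair numbered 2, that of the mural list 365 and 503, and that of the reactive astrocyte list 380 and 545. What the first number stands for is not given in the labels.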

How the data were processed

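Poly(A)-selected, stranded libraries were sequenced by the authors from 14 samples, and genes were quantified with Salmon 0.14 against Ensembl's rat genome and normalized with DESeq2 1.18.1 for each cell type separately, per the labels and methods; the name of the assembly is not given in the sources used here. The deposited signal is these normalized counts per gene symbol, in 1 table of 18239 genes for neurons and 1 of 31791 for astrocytes. Normalization used gene-specific factors, so whole reads could not be recovered and no count test applied. The 2 further tables the authors deposited, of variance-stabilized values, were not used because a log scale cannot be rescaled to a common total. Samples were grouped by the cell type and treatment in their labels.

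Values were rescaled to each library's sum over the 18218 symbols found once in both tables (at least 99.69% of the signal of each library), and genes below a mean of 1 CPM in both cultures were left out. Symbols turned into dates (21 in neurons, 24 in astrocytes) matched no list. A further 13551 genes stood in the astrocyte table only and were not compared, 121 of them with a mean of at least 1 CPM. The tables were normalized separately, so the comparison is a description with no test. Squared differences between libraries of a culture were 1.97 to 4.19 times those of counting noise at the estimated depths (median over genes with at least 20 estimated reads). The estimated depths are rough, and these ratios do not show whether the libraries are separate cultures. Each library was counted singly in every SE, so the pairing of neuron libraries by first number was not taken into account. Counts of called genes used a pseudocount of 1 CPM, a difference of 2 on the log2 scale and non-overlapping ranges, and the scripts (Python 3.11.15, pandas 2.3.3, numpy 2.4.6) were tested on simulated data.

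The genes compared, the 29 lists and the 27 symbol families were chosen with earlier results of these data known. Named genes were the 7 markers, the up to 6 members of each list with the largest difference and members called against their list, the 20 largest and 10 most abundant called genes in each direction with recognisable symbols (the former with a mean of at least 10 CPM), the largest called member of each family in each direction, and all GABA-A, chloride and L-type channel genes, 249 in all. Other members named, mostly exceptions within a list, were chosen after their values were seen. Some genes that these rules name are not reported here. Alternatives changed the scaling, the pseudocount, the minimum, the fold for a call and the libraries used.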

Additional observations from a re-analysis of the deposited data

Results flagged for a closer look

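In 10 of 278 values tested (249 genes and 29 list sums), 1 of the 4 neuron vehicle libraries stood far from the other 3, by a gap over range above Dixon's 95% critical value. Chance gives such a gap in about 1 of 20 groups of 4, more than were found. Groups of 3 astrocyte libraries were not tested.

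Of these, 6 involved neuron library 2-1. Cacna1c was lowest there at 36.5 CPM (others 43.7 to 44.1). Pde2a was highest there at 109.9 (others 101.6 to 102.6), as were Stk39 at 74.6 (others 67.6 to 68.8), Gabra3 at 12.8 (others 11.5 to 11.7), Myh1 at 3.25 (lowest 1.31) and Aldh1a1 at 1.44 (others 1.12 to 1.14). In library 1-2, Fzd6 was highest at 3.14 (others 2.32 to 2.38), and so was the summed level of astrocyte gap junction, ion and water handling genes at 2198 (others 2085 to 2097). Slc17a6 was highest in library 1-1 at 11.9 (others 9.58 to 9.91), and Akr1c14 in library 2-2 at 5.64 (others 4.48 to 4.64). Leaving out the library concerned turned the direction of none of these 9 genes.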

How the results depend on the processing

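Counts of genes called higher in neuron and in astrocyte cultures (1164 and 962) moved with the pseudocount and the fold required. They were 643 and 485 with a pseudocount of 5, 2711 and 2294 with a 2-fold limit, and 289 and 170 with a 16-fold limit. The other settings stayed within 1.5 times: 1092 to 1185 and 977 to 1039 under 4 other scalings, 1503 and 1336 with a pseudocount of 0.1, 944 and 808 with a minimum of 10 CPM, and 1149 to 1168 and 953 to 982 when each library was left out in turn. With no minimum they were 1164 and 962, since a call needs at least 3 CPM in the higher culture. No gene called changed direction under any of these settings. Other scalings moved the median of all genes by at most 0.10. Small list and family medians were less stable. Beside those given with their lists, the medians of claudins, insulin-like growth factor binding proteins, ephrins, metalloproteinases, keratins, Wnt and Hox genes changed sign under at least 1 setting. Chosen after seeing the data, leaving out of each list the member with the largest share of its sum turned the ratio of summed levels, neuron over astrocyte cultures, for astrocyte markers (0.992 to 1.14), progenitor (0.368 to 1.597), chloride (0.930 to 1.04), calcium effector (0.853 to 1.24) and glial transcription factor genes (0.788 to 1.05), and moved that of GABA-A subunits from 18.4 to 45.5, of oligodendrocyte precursor genes from 4.77 to 10.8 and of later oligodendrocyte genes from 11.7 to 18.5. For fibroblast genes the astrocyte over neuron ratio moved from 5.16 to 13.4. No paired analysis was possible because the result comes from no test and the cultures share no replicates. At the estimated depths a level under 1 CPM stands on fewer than about 25 reads, so low genes were not ranked.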

Other observations

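Genes of housekeeping families lay on 1 side of 0 although few were called. All 21 genes of mitochondrial DNA that were kept read higher in neuron cultures (median difference 0.77), as did 75 of 79 nuclear genes of respiratory complexes I to V (0.89), 66 of 73 mitochondrial ribosomal protein genes (0.43) and 35 of 39 proteasome genes (0.71). Of 74 cytosolic ribosomal protein genes, 63 read higher in astrocyte cultures (−0.25). No gene of these families was called except the immunoproteasome gene Psmb8, higher in astrocyte cultures (−2.40 ± 0.11). With the values as deposited the medians were 0.67, 0.78, 0.33, 0.61 and −0.35, so each kept its side. Summed, the cytosolic ribosomal genes took 1.97% to 2.09% of the signal in neuron libraries and 2.51% to 2.62% in astrocyte libraries, and the respiratory complex genes 1.07% to 1.17% and 0.590% to 0.599%.

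Some families were divided by member. Among 14 synaptotagmin genes, 5 were called higher in neuron cultures, but Syt15 was higher in astrocyte cultures (18.1 ± 1.02 against 0.563 ± 0.0605 CPM, SD, n = 3 and 4). Among 19 semaphorin genes, 3 were called in each direction, Sema6b higher in neuron cultures (4.11 ± 0.06) and Sema3c, a secreted guidance cue, higher in astrocyte cultures at 737 ± 24.3 against 50.2 ± 6.42 CPM. Among 6 insulin-like growth factor binding protein genes, Igfbp3 was called higher in neuron cultures, at 123, 139, 195 and 194 CPM against 30.6 to 31.2, and Igfbp7 higher in astrocyte cultures, at 839.6 to 872 against 71.1 to 75.9. The lectin gene Clec2g, which stood in the astrocyte table only and was chosen after its value was seen, read 298 ± 8.14 CPM (n = 3).

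The counts of other families stand beside 7.78% of all kept genes called higher in neuron and 6.43% in astrocyte cultures. Of 266 solute carrier genes, 40 were called higher in neuron cultures and 10 higher in astrocyte cultures, led by Slc10a4 (−2.72 ± 0.12). Protocadherins were called in 5 of 30 cases, all higher in neuron cultures, with Pcdh15 at 82.8 to 89.6 CPM against 0 to 0.0412. Interleukin and receptor genes were called in 5 of 36 cases and S100 genes in 3 of 9, all higher in astrocyte cultures, with Il34, a ligand of Csf1r, at −4.51 ± 0.09 and S100a6 at −6.32 ± 0.20. Keratins were called in 1 of 7 cases, Krt8, higher in astrocyte cultures. Calls went both ways, higher in neuron and in astrocyte cultures, for ephrins and Eph receptors (6 and 2 of 21), metalloproteinases and Adamts genes (6 and 6 of 28), kinesins (4 and 3 of 36, or 11.1% and 8.33%, near the shares of all genes), Wnt and Fzd genes (2 and 3 of 18), claudins (1 and 4 of 9) and myosins (1 and 3 of 13, or 7.69% and 23.1%). The 1 Hox gene kept was not called.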
